A study of Mus musculus with 47 samples.

Results

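Reads of the carbonic anhydrase genes Car2, Car4, Car7, Car8, Car10, Car11, Car12 and Car14 were followed cell by cell in NPY-positive neurons of the mouse. These 8 genes were chosen by name as members of the family, among 16 carbonic anhydrase genes and 22800 gene symbols of the count table. Their levels were described in 26 cells: 10 of the auditory cortex (AC), 13 of the hippocampal area CA3 and 3 of CA1. A further 15 columns of the table that held no read of Gad1, which encodes the GABA-synthesizing enzyme of inhibitory neurons, served as a contrast that contained glial transcripts.

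Each sample was the cytosol of 1 cell, drawn into the patch pipette, and its polyadenylated RNA was sequenced after a Nextera XT library preparation. All animals were 3 to 8 weeks old and of either sex, and carried a green fluorescent reporter of neuropeptide Y expression (NPY-hrGFP in the methods, NPY-EGFP in the design text). AC cells lay in layers 1 and 2 of the primary auditory cortex, and CA3 cells in stratum lacunosum-moleculare near its border with stratum radiatum. The whole series held 20 AC, 21 CA3, 3 CA1 and 2 dentate gyrus samples that were labelled NPY-positive, and 1 NPY-negative CA3 sample, from 8 mice, and N4 and N4X of AC were taken as 1 cell because their counts followed each other over genes (r = 0.9998). Because no cell was tied to a mouse, each region counted as 1 sample, so no test between regions was possible. SDs below are over cells and are descriptive. The 10 AC and 13 CA3 cells were a selection made in earlier work on these data, which matched columns of the table to cells drawn in heat maps by the study. Values of plotted genes thus took part in the choice, and Car4 and Ndnf, which the study discussed as markers, may be among them. The study described both genes in about 1 in 2 of its AC cells and in 2 of its 20 CA3 cells. The match was not repeated here, and the values with all labelled cells are given in the closing section.

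Carbonic anhydrases interconvert carbon dioxide and water with bicarbonate and a proton, and so set how fast the pH inside and around a cell can be buffered. In the brain they also supply the bicarbonate that leaves neurons through GABA-A receptors. The catalytic enzymes hold a zinc ion with 3 histidine residues. Car2 and Car7 are cytosolic enzymes, the first of them abundant in oligodendrocytes and the second in neurons. Car4 is anchored to the outer face of the membrane by a lipid, and Car12 and Car14 span the membrane with the catalytic domain outside. Car8, Car10 and Car11 are carbonic anhydrase-related proteins that keep the fold but lack zinc ligands. Car8 binds the inositol trisphosphate receptor, and Car10 is a secreted ligand of neurexins.

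The zinc-binding positions were compared in the coding sequences of 7 members. The stretches below run, in the spliced coding sequence of the GRCm38 annotation (GENCODE vM21), from 2 codons before the first to 2 codons after the last position that aligned with the zinc-binding histidines of Car2. Those 3 codons are in capitals, each sequence is on the coding strand, and an intron between the named exons is left out. They are shown because the number of histidine codons separates the members.
Car2: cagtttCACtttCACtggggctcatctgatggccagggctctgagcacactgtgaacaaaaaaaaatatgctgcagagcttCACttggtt
Car4: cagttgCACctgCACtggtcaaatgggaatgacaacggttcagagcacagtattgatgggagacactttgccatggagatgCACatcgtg
Car7: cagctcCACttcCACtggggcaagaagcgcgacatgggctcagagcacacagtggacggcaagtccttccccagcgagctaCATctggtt
Car12: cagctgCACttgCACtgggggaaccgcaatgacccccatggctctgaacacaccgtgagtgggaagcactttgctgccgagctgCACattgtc
Car14: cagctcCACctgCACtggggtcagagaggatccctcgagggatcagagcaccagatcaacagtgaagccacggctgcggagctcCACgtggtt
Car10: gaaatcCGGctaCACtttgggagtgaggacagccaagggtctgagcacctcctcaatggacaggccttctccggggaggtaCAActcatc
Car11: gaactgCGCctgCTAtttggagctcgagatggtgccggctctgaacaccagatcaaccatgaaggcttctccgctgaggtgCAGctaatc

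In Car2 the 3 codons encode H94, H96 and H119, counted from the initiator methionine. Car4, Car7, Car12 and Car14 also held 3 histidine codons at the aligned positions. Relative to Car2, Car10 held 1, with H94R and H119Q, and Car11 held 0, with H94R, H96L and H119Q. Over the aligned protein, identity with Car2 was 55.0% for Car7, 37.5% for Car12, 37.2% for Car14, and 33.3% for each of Car4, Car10 and Car11. The stretches spanned exons 3 and 4 of Car2 (chr3:14895063-14895546, plus strand) and Car7 (chr8:104547728-104548197, plus). In the other members they spanned exons 4 and 5: Car4 (chr11:84964161-84964359, plus), Car10 (chr11:93490600-93578677, plus), Car11 (chr7:45702542-45702844, plus), Car12 (chr9:66747641-66750941, plus) and Car14 (chr3:95900015-95900323, minus).

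Total reads ranged from 1715012 to 6265431 per AC cell, from 2229519 to 7949918 per CA3 cell and from 601781 to 3202430 per CA1 cell. The number of genes with a read was 3163 to 6288 in AC and 3679 to 8149 in CA3. Every one of the 26 cells had reads of Gad1 and Npy, and the summed GABAergic markers lay at 4928 to 31115 CPM (reads per 1000000 reads of the cell). In AC, Aqp4, Fgfr3 and Gjb6 of the astrocyte list and Mog, Mag, Mobp, Cldn11 and Opalin of the oligodendrocyte list were at 0, as were Mog, Cldn11 and Opalin and the astrocyte markers Aqp4, Gja1, Aldh1l1, Gfap, Fgfr3 and Gjb6 in CA3. The other markers of both lists had reads in at least 1 cell of the region, and the sums reached 2820 CPM for the astrocyte and 367 CPM for the oligodendrocyte list in AC, and 372 and 1043 CPM in CA3. Microglial markers reached 4365 CPM in AC and 2161 CPM in CA3, and Tmem119 of that list was at 0 in both. Levels are given as raw reads, as CPM, or as log2(normalized count + 1), where the normalization divides the reads of a cell by its scran size factor.

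The family was dominated by 3 members. Car11 had reads in 15, Car4 in 9 and Car2 in 7 of the 23 AC and CA3 cells, while Car7, Car8 and Car10 appeared in 3 cells or fewer and Car12 and Car14 in none. AC and CA3 cells differed in which member led. By reads per kilobase of exon and per 1000000 reads, Car4 led the family in 6 of 10 AC cells, and in the others Car11, Car2 and Car10 led in 1 cell each, with 1 cell lacking all 8. In CA3, Car11 led in 6 of 13 cells, Car2 in 5 and Car7 in 1, and again 1 cell lacked all members. In CA1, Car11 led in 2 cells and Car4 in 1. The number of members with reads per cell had a median of 1.5 in AC (range 0 to 4) and of 2 in CA3 (0 to 3).

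**Figure D1:**
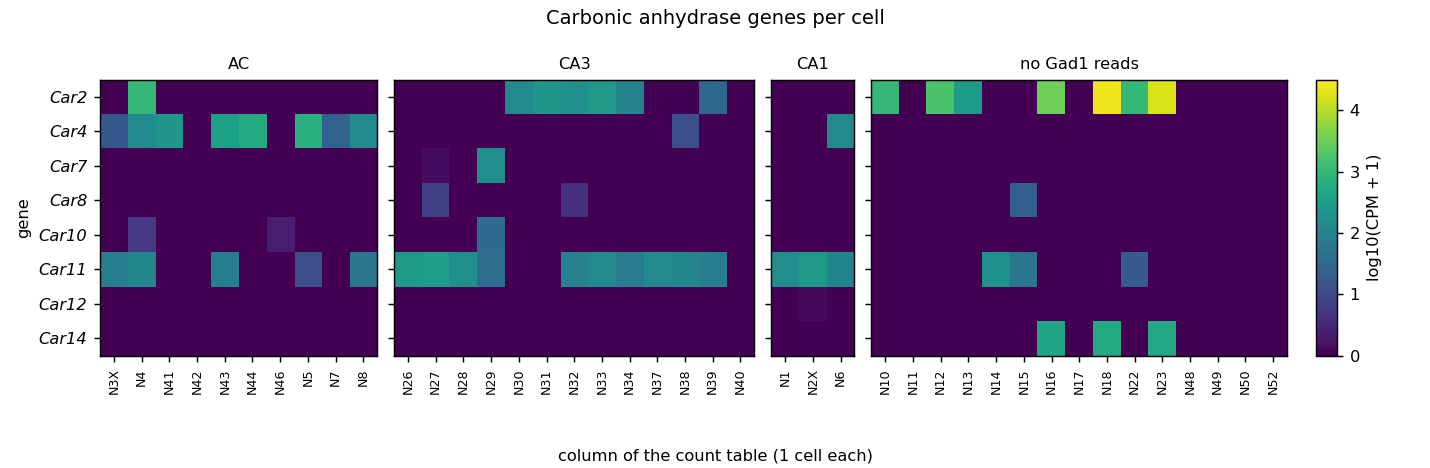
Heat map of log10(CPM + 1) for the 8 members (rows) in the 10 AC, 13 CA3 and 3 CA1 cells and in the 15 columns without Gad1 reads (1 column per cell, darkest colour for 0 reads). The Car4 row was filled in 8 of 10 AC cells and 1 of 13 CA3 cells, Car2 was read in 6 CA3 cells and 1 AC cell, and Car14 was read in 3 columns without Gad1 reads only.

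On the per-length scale, the order of the levels in AC was Car4 at 99.9, Car2 at 20.7, Car11 at 18.4 and Car10 at 0.0554 reads per kilobase of exon and per 1000000 reads. In CA3 the order was Car11 at 50.6, Car2 at 30.2, Car7 at 2.85, Car4 at 0.437, Car10 at 0.367 and Car8 at 0.138. In CA1 it was Car11 at 111, Car4 at 16.1 and Car12 at 0.0261. Single cells set several of these places. All Car2 reads of AC came from cell N4, 99.8% of the Car7 reads of CA3 came from cell N29, and all Car4 and all Car10 reads of CA3 came from 1 cell each. The neighbours Car2 and Car11 in AC, and Car4 and Car10 in CA3, were therefore not separated beyond the spread over cells.

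For the comparison of AC with CA3, a gene was said to be higher in a region when its mean log2 level exceeded that of the other region by at least 1. Of the 9175 genes read in at least 5 of the 23 cells, 1466 (16%) were higher in AC and 4037 (44%) were higher in CA3, and the median difference, AC minus CA3, was -0.72. Of the 8 members, 3 were read in enough cells to be compared: 1 was higher in AC (Car4) and 2 were higher in CA3 (Car11 and Car2). Car4, read in 8 AC and 1 CA3 cells, and Car2, read in 1 and 6, passed this filter only through the region where they were higher. Their calls are therefore not independent of the filter, and the same can hold for genes of the lists below. With so many genes higher in CA3, a pair of members in that direction did not set the family apart. On the log2 ratio of summed CPM + 1, 22.5% of the genes were higher in AC and 25.7% in CA3, and Car2, at -0.54, was no longer among the members higher in CA3. Over all 8 members, including those with no read, the median difference was -0.31.

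**Figure D2:**
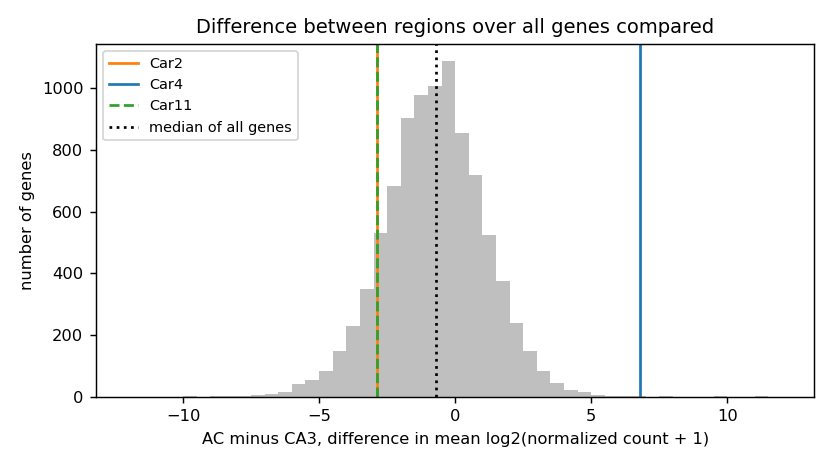
Histogram of the AC minus CA3 difference in mean log2(normalized count + 1) over 9175 genes (bars, number of genes per bin), with lines at Car2, Car4, Car11 and the median. Car4, at 6.81, lay at the far right edge, whereas Car2 and Car11, at -2.86 and -2.87, lay inside the left slope of the distribution, whose median was -0.72.

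Among the extracellular enzymes, Car4 (chr11:84957786-84966044, plus strand) had 66 reads in N3X, 249 in N4, 960 in N41, 1147 in N43, 1946 in N44, 1364 in N5, 59 in N7 and 898 in N8 of AC, and 0 in N42 and N46. In CA3 it had 42 reads in N38 and 0 in the other 12 cells. All 8 AC cells with reads lay above the highest CA3 cell, and the regions overlapped only through the 2 AC cells at 0. Because Car4 may have taken part in the choice of these cells, this separation is a description only. Its log2 level was 7.21 ± 4.21 in AC (SD, n = 10) and 0.40 ± 1.45 in CA3 (SD, n = 13), a difference of 6.81, and 0.0436% of the genes compared had a larger one. With all labelled cells and library size factors the difference was 3.42. The reads of Car4 added up to 196 CPM over the AC cells (192 to 201, exact Poisson 95% interval) against 0.860 CPM over the CA3 cells (0.620 to 1.16), a ratio of 228.5. These intervals cover counting error alone.

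The AC cells with Car4 reads still differed widely from each other. Their CPM ran from 16.3 in N3X to 721 in N5, with a log2 level of 9.01 ± 2.07 (SD, n = 8). Both AC cells without Car4 reads carried more microglial marker RNA, at 4365 CPM in N42 and 2740 CPM in N46 against 0 to 911 CPM in the 8 cells with Car4 reads. The astrocyte list was at 996 and 1119 CPM in those 2 cells and at 0 to 2820 CPM in the other 8. N42 had the fewest genes with a read of all 26 cells, 3163 at a total of 3836285 reads, and N46 had 4637 at 3247495 reads. The part of these differences in the absence of Car4 was not tested.

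Car4 was read together with Ndnf, a secreted factor that marks neurogliaform cells of cortical layer 1, in 7 AC cells. The AC cell N4 held Car4 without Ndnf, no AC cell held Ndnf without Car4, and N42 and N46 held neither. In CA3 the genes did not meet: N38 held Car4 without Ndnf and N29 held Ndnf without Car4. In CA1, cell N6 had 159 Car4 reads (129 CPM) along with Ndnf, and N1 and N2X had Ndnf without Car4. Over the 26 cells the genes whose log2 level was most alike to that of Car4 were Srp68 (Pearson r = 0.69), Kit (0.67) and Trib1 (0.66), out of 7703 genes read in at least 8 cells. These coefficients describe cells that share regions and differ in depth. Car4 and Ndnf may also have taken part in the choice of the AC and CA3 cells.

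**Figure D3:**
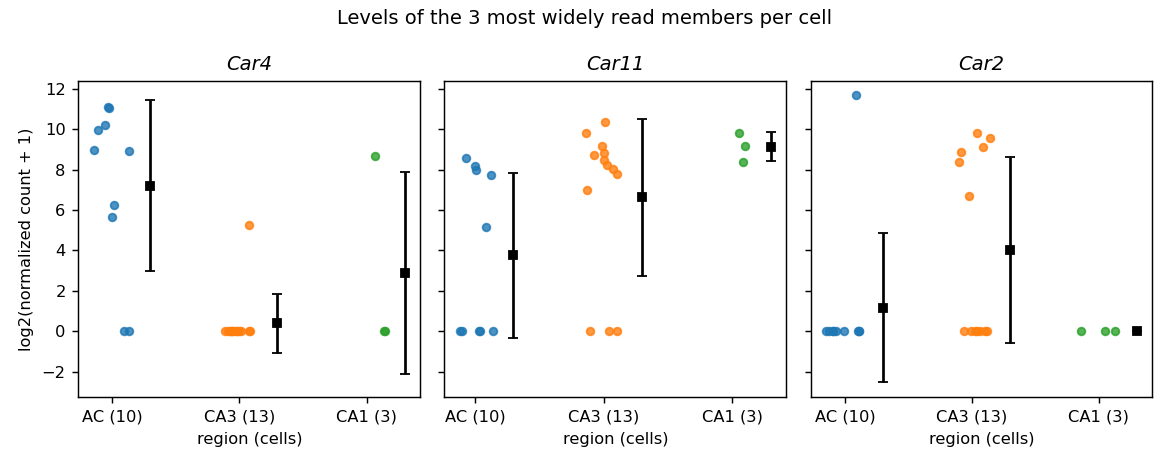
Levels of Car4, Car11 and Car2 as log2(normalized count + 1), 1 point per cell in AC (10), CA3 (13) and CA1 (3), with squares and bars for mean ± SD over cells. Car4 stood at 5.65 or above in 8 AC cells and in 1 CA3 cell at 5.24, Car11 was read in every CA1 cell, and Car2 was at 0 in 9 of 10 AC cells.

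The membrane-spanning enzymes were close to absent. Car12 (chr9:66713686-66766845, plus strand) had 1 read in the CA1 cell N2X and 0 in the other 25 cells. Car14 (chr3:95897768-95904691, minus strand) had 0 reads in all 26 cells. For both genes, 0 reads allowed up to 0.0881 CPM over the summed AC reads and 0.0614 CPM over those of CA3, the level that 3 reads would give. The share of cells with a read could still be up to 30.8% in AC and 24.7% in CA3 (exact Clopper-Pearson 95% limits, which take cells as independent, although cells of 1 mouse are not).

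Among the cytosolic enzymes, Car2 (chr3:14886273-14900770, plus strand) split the CA3 cells. It had 360 reads in N30, 876 in N31, 570 in N32, 996 in N33, 516 in N34 and 258 in N39, and 0 in the other 7 cells. In AC it had 1704 reads in N4 and 0 in the other 9 cells, and in CA1 it had none. No CA3 cell lay between 0 and 258 reads, although even the shallowest of them had a floor of 1.35 CPM for 3 reads. Such gaps were not particular to Car2. Car11 in CA3 was at 0 or at 124 reads and above, and Car4 in AC at 0 or at 59 and above. The share of all genes with such a gap was not determined. Of the 9175 genes compared, 327 (3.56%) were read in at least as many CA3 and at most as many AC cells as Car2. The log2 level of Car2 was 4.03 ± 4.59 in CA3 (SD, n = 13) and 1.17 ± 3.69 in AC (SD, n = 10), a difference of -2.86, and 11.8% of the genes compared had a more negative one. The summed CPM of the regions were much closer, at 73.2 in CA3 (70.8 to 75.6) and 50.04 in AC (47.7 to 52.5), a ratio of 1.46. The single AC cell with Car2 reads was the highest of all 26 at 994 CPM.

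The 6 CA3 cells with Car2 reads were examined for glial RNA, since Car2 is a textbook marker of oligodendrocytes. All 8 astrocyte markers were at 0 in them. Mog, Mag, Mobp, Cldn11 and Opalin were at 0 as well. Mbp was read in 5 of the 6, with 121 reads in N30, 85 in N32, 128 in N33, 37 in N34 and 4619 in N39, and in 2 of the 7 CA3 cells without Car2. The summed oligodendrocyte markers had a median of 79.6 CPM in the cells with Car2 (0 to 1043) and of 7.18 CPM in those without (0 to 955). They lay at 0 in N31, 29.4 CPM in N32, 43.3 in N30, 116 in N33, 146 in N34 and 1043 in N39, and the cell with the highest sum had the lowest Car2 count of the 6. The part of oligodendrocyte RNA in the Car2 reads was not tested. The AC cell N4 was different, with 3 of 8 astrocyte markers read at a sum of 2820 CPM, the highest value in AC, although Aqp4 and Gja1 were at 0. The part of astrocyte RNA in its Car2 level was not tested.

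Car2 and Car11 met in 4 CA3 cells, while 2 had Car2 alone, 6 had Car11 alone and 1 had neither. The genes most alike to Car2 over the 26 cells were Zfp946 (Pearson r = 0.77), Patl1 (0.72) and Gsn (0.71), the last of which encodes the actin-severing protein gelsolin. Of these, Zfp946 was read in 6 of the 7 cells with Car2. The likeness rested on 7 cells with Car2 reads and is a description of these cells.

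Car7 (chr8:104534689-104550343, plus strand) had 505 reads in the CA3 cell N29, 1 read in N27 and 0 in the other 24 cells. Summed over CA3 it took 10.4 CPM (9.47 to 11.3), at least 118-fold the 0.0881 CPM that 3 reads over the AC cells would give. That ratio was a property of N29. The mean log2 difference was -0.80, and Car7 was read in too few cells to be compared.

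N29 stood apart in several members. It was the only CA3 cell with Car10 reads, had the lowest nonzero Car11 count of CA3 at 124, and was the only CA3 cell with reads of Ndnf. It had no reads of Car2, Car4 or Car8. Its 14121 Gad1 and 5019 Npy reads lay inside the range of the other CA3 cells, and its oligodendrocyte markers summed to 0.316 CPM.

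Among the related proteins, Car11 (chr7:45699843-45704682, plus strand) was the most widely read. In CA3 its count had a lowest value of 0, a median of 399 and a highest value of 814, with reads in 10 of 13 cells (76.9%, exact Clopper-Pearson 95% interval 46.2 to 95.0%). In AC it was read in 5 of 10 cells (interval 18.7 to 81.3%), with 341 reads in N3X, 200 in N4, 275 in N43, 22 in N5 and 371 in N8. In CA1 it was read in 3 of 3 cells, with 98 in N1, 844 in N2X and 132 in N6. The ranges of AC and CA3 overlapped, both through cells at 0 and through cells with reads.

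The log2 level of Car11 was 3.76 ± 4.07 in AC (SD, n = 10), 6.64 ± 3.88 in CA3 (SD, n = 13) and 9.13 ± 0.71 in CA1 (SD, n = 3). The AC minus CA3 difference was -2.87, or -2.15 relative to the median of all genes, and 11.7% of the genes compared had a more negative one. Summed CPM were 35.5 in AC (33.5 to 37.6), 97.5 in CA3 (94.7 to 100.3) and 213 in CA1 (201 to 226), and CA3 exceeded AC by a ratio of 2.75. Within the cells that had reads, the levels were 7.53 ± 1.35 in AC (SD, n = 5) and 8.63 ± 0.98 in CA3 (SD, n = 10), which lay closer together than the means over all cells. In AC all 5 cells with Car11 also had Car4, and 3 had Car4 alone. The genes most alike to Car11 were Nop58 (Pearson r = 0.76), Mrps17 (0.71) and Foxn3 (0.70).

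Car8 (chr4:8143362-8239041, minus strand) had 15 reads in N27 and 11 in N32 of CA3 and 0 in the other 24 cells. Over CA3 this was 0.532 CPM (0.348 to 0.780), at least 6.04-fold the AC floor. Car10 (chr11:93098028-93601749, plus strand) had 8 reads in N4 and 4 in N46 of AC and 114 in N29 of CA3. For Car10 the measures gave opposite orders: the mean log2 level was 0.11 higher in AC, where 2 cells had reads, and the summed CPM was 6.62 times higher in CA3, where 1 cell had all of them. Neither gene was read in enough cells to be compared.

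The other 8 carbonic anhydrase genes of the table added little. Car1, Car3, Car5a, Car6 and Car9 had no read in any of the 26 cells. Car5b, a mitochondrial enzyme, had 2 reads in N42 and 1 in N30, and Car13 had 1 read in N27. Car15 had 159 reads in N43 and 1 in N30.

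The partners of the related proteins were widely read in the same cells. Of 6 genes for these partners and for receptor phosphatases that carry a carbonic anhydrase-like domain, 5 were higher in AC, 0 in CA3, and the median difference was 2.07, beside 16% and 44% of all genes and their median of -0.72. Ptprz1, one of the phosphatases, had the largest difference at 3.99 (reads in 5 of 10 AC cells and 1 of 13 CA3 cells). It entered the comparison only through its AC cells. Itpr1, which encodes the receptor that Car8 binds, differed by 2.85, and 0 of 10 AC cells had Car8 reads although 9 had reads of Itpr1. With the factors of edgeR or DESeq2, 4 of the 6 were higher in AC, as on summed CPM, where the median was 1.21. On summed CPM 22.5% of all genes were higher in AC and their median was -0.08.

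Bicarbonate is moved across the membrane by the Slc4 transporters. Of 10 such genes 5 were compared, 3 were higher in AC and 0 in CA3 (16% and 44% of all genes), and the median difference was 1.79 beside -0.72 over all genes. Slc4a10, a sodium-driven bicarbonate transporter of neurons, had the largest difference at 3.18, with reads in 10 of 10 AC and 8 of 13 CA3 cells. Slc4a8 had the lowest at 0.41, although its summed CPM was 139 in AC and 29.5 in CA3. On the log2 ratio of summed CPM + 1, 4 of the 5 were higher in AC, beside 22.5% of all genes. The genes Slc4a1, Slc4a5, Slc4a9 and Slc4a11 had no read in the AC and CA3 cells. Of 5 cation-chloride cotransporter genes 3 were compared, 0 were higher in AC and 2 in CA3, the direction of 44% of all genes. Slc12a5, which encodes the neuronal chloride extruder KCC2, differed by -0.94, with reads in 8 of 10 AC and 13 of 13 CA3 cells, while its summed CPM was higher in AC, at 171 against 143.

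Of 9 enzymes that use bicarbonate 7 were compared, with 2 higher in AC and 3 in CA3, beside 16% and 44% of all genes, and a median of -0.99 beside -0.72. With the factors of edgeR or DESeq2, 4 were higher in CA3. Cad, of pyrimidine synthesis, had reads in 5 AC cells and 0 CA3 cells (difference 3.55), so that it entered the comparison through its AC cells alone, and Acaca, of fatty acid synthesis, differed by 2.54. Pcca, a subunit of the mitochondrial propionyl-CoA carboxylase, differed by -1.81. Of 12 proton and lactate transporter genes 6 were compared, with 0 higher in AC and 1 in CA3. Of 9 acid sensors 2 were compared and neither passed. Asic2 differed by 0.04, with a summed CPM of 5.34 in AC and 43.3 in CA3, and Kcnk3, read in 0 AC and 5 CA3 cells, differed by -0.85. On the log2 ratio of summed CPM + 1 these counts moved. They became 2 higher in AC and 1 in CA3 for the enzymes, 2 and 0 for the transporters and 0 and 1 (Asic2) for the sensors. On that scale 22.5% of all genes were higher in AC and 25.7% in CA3.

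The columns without Gad1 reads gave a contrast for Car2 and Car14. None of these 15 columns was among the 26 cells, 14 of them were labelled NPY-positive, and 14 had no read of Npy. They were shallower, with 40934 to 5135021 reads and a median of 291745. Picked by a gene they lacked, they formed no group of the study, and only values per column are given. Not all of them were rich in glial markers. In N48, N49 and N50 the GABAergic list stood at 3289, 31768 and 9616 CPM, and the astrocyte and oligodendrocyte lists at 172 CPM or lower. Car4, Car7, Car10 and Car12 were at 0 in all 15 columns, where 3 reads would give between 0.584 CPM (N48) and 73.3 CPM (N52).

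Reads of all 8 oligodendrocyte markers occurred in 3 columns, the NPY-negative cell N16 and the CA3 cells N18 and N23 labelled NPY-positive, at a sum of 192010, 124092 and 137418 CPM. The same 3 columns held Car2 at 3222, 24132 and 17837 CPM and were the only columns of the table with Car14, at 452, 561 and 516 CPM. The highest Car2 value of a listed CA3 cell was 257 CPM. Car14 shares 445 exon bases with Aph1a on the opposite strand, and the use of strand in counting is not stated. Aph1a had 27, 34 and 43 reads in N16, N18 and N23, against 132, 194 and 211 of Car14.

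Car2 also appeared where astrocyte markers were high. The summed astrocyte markers reached 29614 to 34055 CPM in N10, N11, N12, N13, N17 and N22, and Car2 was at 975 CPM in N10, 1648 in N12, 277 in N13 and 1023 in N22. It was at 0 in N11 and N17, whose floors for 3 reads were 33.6 and 23.9 CPM. Car11 had 22 reads in N14, 13 in N15 and 6 in N22, and Car8 had 5 reads in N15. The other columns without Gad1 had no member.

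**Figure D4:**
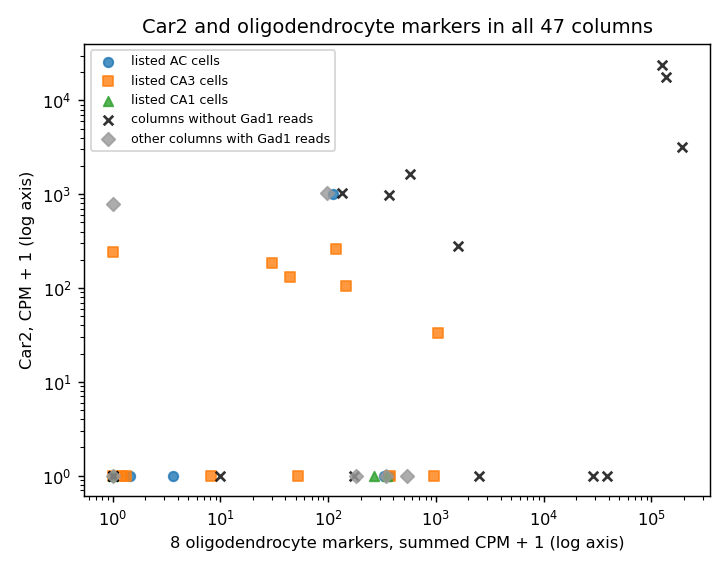
Car2 against the sum of the 8 oligodendrocyte markers, both as CPM + 1 on log axes, with 1 point for each of the 47 columns of the table and symbols for listed AC, CA3 and CA1 cells, columns without Gad1 reads and other columns. At the upper right, 3 columns without Gad1 reads held 124092 CPM or more of the markers with much Car2, N11 and N15 held 39072 and 28480 CPM of the markers with no Car2 read, and the 6 listed CA3 cells with Car2 lay at 1043 CPM of the markers or lower.

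Among the 6 columns with Gad1 reads outside the 26 cells, the CA3 column N36 had 1955 Car2 reads (792 CPM) with all 8 astrocyte and all 8 oligodendrocyte markers at 0. The AC column N45 had 172 reads of Car7 and 410 of Car11, and N9 had 1 read of Car10. The AC column N4X had 3343 reads of Car2, 401 of Car4, 344 of Car11 and 7 of Car10. It was taken as the same cell as N4. N47 and N51 had no reads of any member.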

How the data were processed

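Cytosolic RNA of single cells was sequenced, and the deposited table holds unnormalized counts per gene symbol (22800 symbols, 47 columns). Per the methods, the authors used Trimmomatic and Flexbar for preprocessing, STAR against Ensembl GRCm38 for alignment and HTSeq for counting, identifiers of the same symbol (annotation version 86) being averaged. The labels name featureCounts as the counter. Averaging can lower counts of symbols with several identifiers.

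Size factors were computed on the 26 cells with scran 1.30.0 in R 4.3.3 (pool sizes 10 and 20). The level of a gene is log2(normalized count + 1). Alternatives used edgeR 4.0.16 and DESeq2 1.42.0 for factors only. Each region was 1 sample, so no model was fitted. A difference of at least 1 was called, for genes read in at least 5 of 23 cells. Zero reads are given with the limit of 3 reads over the region. Intervals (95%) are exact. Those of summed reads cover counting error only, and those of shares of cells take cells as independent, which cells of 1 mouse are not. Lengths and coding sequences came from GENCODE vM21, and proteins translated from them were aligned to Car2 with Biopython 1.88. Other steps used Python 3.11.15, numpy 2.4.6, pandas 2.3.3, scipy 1.17.1 and matplotlib 3.10.9.

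All 8 members were named, and in each list the genes with the largest differences and those at 0. The 3 genes most alike by Pearson r were named for members with reads in 5 or more of the 26 cells. The members, cells and lists were chosen with earlier results of these data known. The steps were also run on simulated counts. The changed genes of that run had few cells at 0, unlike Car4 and Car2, so it cannot show how the steps treat such genes. Some genes and sequences that these rules name are not reported here.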

Additional observations from a re-analysis of the deposited data

Results flagged for a closer look

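The Car2 level in AC stood apart in 1 cell. N4, with 1704 reads against 0 in the other 9 AC cells, had a gap to its nearest neighbour that filled the whole range (ratio 1, above Dixon's 95% critical value for 10 cells). This ratio follows for any gene read in 1 cell only, so it says no more than that. Of the 4 members whose AC levels varied, 1 had such a cell. N4X, whose counts followed those of N4, held Car2 at 1031 CPM.

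Reads of members also occurred in cells that entered no comparison. The 2 dentate gyrus columns and the NPY-negative CA3 column together held 1254 reads of Car2, of which 314 were in N12 and 940 in N16, and 132 reads of Car14, all in N16. No cause of these values was tested.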

How the results depend on the processing

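The directions of Car4, Car11 and Car2 held under every alternative run. Other values did not all hold: Car10, Slc12a5, Asic2 and the median of the proton and lactate transporters (-0.03) were among those that changed sign on summed CPM, the last to 0.84. With each cell left out in turn, the AC minus CA3 difference ran from 6.38 (without N5) to 7.61 (without N42) for Car4, from -3.42 (without N30) to -2.45 (without N41) for Car11 and from -4.03 (without N4) to -2.38 (without N31) for Car2, and the counts of members stayed at 1 higher in AC and 2 higher in CA3. On the log2 ratio of summed CPM + 1, the number of members higher in CA3 was 1, as Car2 fell to -0.54, and 25.7% of genes were higher in CA3 and 22.5% in AC. With all labelled cells (N4 and N4X averaged as 1) and library size factors, which brings in the columns without Gad1, the differences were 3.42 for Car4, -2.81 for Car11 and -4.25 for Car2, and 6.89% of genes were higher in AC and 49.4% in CA3. With pseudocounts of 10 and 0.1 the differences were 4.43 and 9.21 for Car4, -1.96 and -3.77 for Car11 and -1.68 and -4.06 for Car2. Thinning all cells to 601781 reads gave 5.07 for Car4, -2.24 for Car11 and -2.04 for Car2, and changed no number of cells with a read. Without the cells of highest glial marker CPM (N42 and N27), the differences were 7.58, -2.14 and -3.07. The median of all genes lay between -1.08 (pseudocount 0.1) and -0.08 (summed CPM). Requiring 10 reads left Car7 in 1 CA3 cell and Car10 in 0 AC cells. With the longest transcript as length, Car10 ranked 4 and Car4 ranked 5 in CA3. No paired analysis was possible because no result comes from a test and replicate numbers only name cells.

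Depth limits the genes at 0: 3 reads correspond to 0.377 CPM in the deepest listed cell (N39) and 4.99 CPM in the shallowest (N1). Low capture from 1 cell and lack of expression cannot be told apart for a gene at 0, and no source says which cells share a mouse.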
